A study of Mus musculus with 7 samples.

Results

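Olfactory and vomeronasal receptor genes were examined in seminiferous tubules of adult mice with and without a conditional deletion of Ctcf in male germ cells. Every row of the deposited expression table whose first gene symbol begins with Olfr, Vmn1r, Vmn2r or Taar was taken, which gave 33 rows of 7580. Each of the 33 rows carried a different gene: 19 odorant receptors (Olfr), 6 vomeronasal type 1 receptors (Vmn1r) and 8 vomeronasal type 2 receptors (Vmn2r), with 0 trace amine-associated receptors (Taar). A row is a transcript cluster, the set of probes on the array that is read together as one transcript. All 33 rows overlapped the RefSeq gene of their symbol in GRCm38.p6.

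RNA came from 3 wild-type and 4 Ctcf-cKO mice aged 12 to 15 weeks, on a background that the methods spell C56BL/6J, and 1 GeneChip mouse transcriptome array was used per mouse. The Ctcf-cKO mice carried the Stra8-iCre transgene, one floxed Ctcf allele and one excised allele (Stra8-iCre-Ctcf f/Δ). The methods describe wild-type animals as littermates that can themselves carry floxed or wild-type Ctcf alleles (Ctcf f/f, wt/f or wt/wt). Cre is under the Stra8 promoter and acts from the premeiotic germ cells onward. In testis sections of these mice, the paper saw CTCF protein in Sertoli, Leydig and spermatogonial cells but not in spermatocytes or spermatids. By the genotype, somatic cells carry the floxed allele beside the excised one, so they need not match wild-type somatic cells. The sample titles name testes, whereas the tissue label names seminiferous tubules.

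Odorant receptors are G protein-coupled receptors by which the sensory neurons of the nose detect volatile molecules, and each neuron settles on a single receptor gene. The vomeronasal organ uses separate families: type 1 receptors, coupled to the G protein subunit Gnai2, and type 2 receptors, which have a large extracellular domain and are coupled to Gnao1. These genes lie in arrays of similar neighbours over many chromosomes, and a large part of them are pseudogenes. Transcripts of some odorant receptors are known from male germ cells, where a role in sperm guidance has been discussed.

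As signal, the deposited table gives for each row only the log2 average of each genotype. It lists only transcript clusters that the authors had selected for a linear fold of 2 and a p limit of 0.05. The fold changes, p-values and adjusted p-values of the authors' own comparison also stand in it and were not used here. No difference was under 1 on the log2 scale. Values of single mice were not analysed here, so no spread or overlap between mice is given and no test between genotypes was run. The arrays, 3 against 4, limit the precision of each value. All values below are the authors' averages, and each difference is the Ctcf-cKO average minus the wild-type average on the log2 scale. Ctcf itself has no row among the 7580 rows, so the deletion could not be checked in these values. RefSeq lists 2089 genes of the 4 receptor families, of which 1.58% have a row here. The same share over all genes is not given, so whether 1.58% is low or high cannot be said. Genes outside the table carry no value here, whatever their expression.

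Of the 33 receptor rows, 29 had the lower average in Ctcf-cKO and 4 the higher one. Among all 7580 rows of this selected list, 64.9% were lower and 35.1% higher. Among the 4102 rows of its classes Coding and Complex, which hold all the receptor rows, 62.1% were lower and 37.9% higher. The share among the receptors was 87.9%. The median wild-type average of the receptor rows was 6.09, the median Ctcf-cKO average 5.03 and the median difference -1.23, beside a median difference of -1.12 over the classes Coding and Complex. The 14 vomeronasal receptor rows were all lower, and the 4 higher rows were all odorant receptors, beside 15 odorant receptor rows that were lower. Differences ran from -2.19 for Vmn1r-ps23 to 2.02 for Olfr39. A signal at least 3-fold lower was seen in 9 receptor rows, beside 7.87% of the classes Coding and Complex. By family, the median difference was -1.12 for Olfr, -1.745 for Vmn1r and -1.27 for Vmn2r, and these families were not compared by a test.

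The median difference of all 7580 rows was -1.145, and after subtracting it 18 receptor rows were below 0 and 15 above it. The 11 rows that turned had differences of -1.14 to -1.01: Olfr1445, Olfr1283, Olfr1497, Olfr275, Olfr1281, Olfr735, Vmn1r31, Vmn1r43, Vmn2r5, Vmn2r107 and Vmn2r71. Because this median is negative, subtracting it raises every row, so a lower row can turn and a higher one cannot. It comes from rows chosen by fold and says nothing of the array as a whole.

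**Figure D1:**
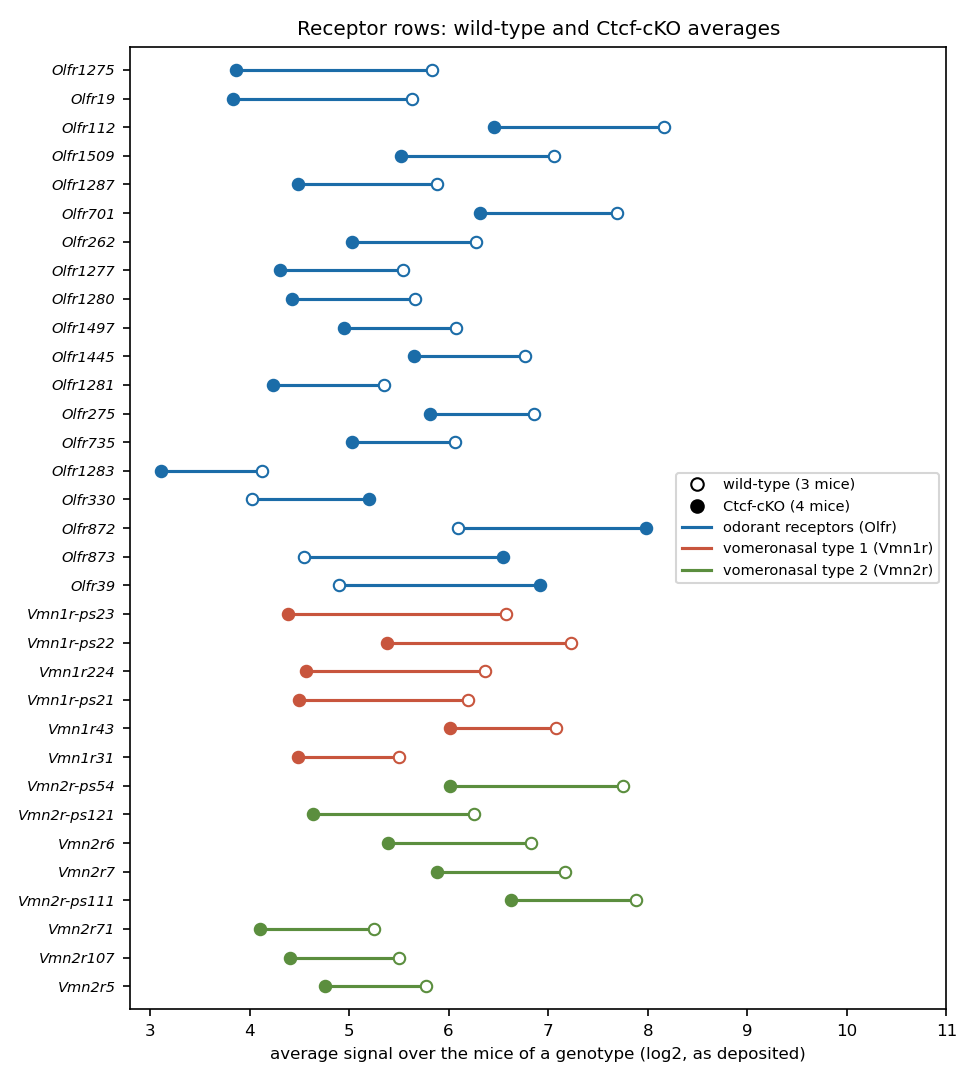
Average log2 signal of the 33 receptor rows (horizontal axis) in wild-type (open circles, 3 mice) and Ctcf-cKO (filled circles, 4 mice), coloured by family and ordered by difference within each family. The points are the authors' averages with no error, and the filled circle lies left of the open one in 29 rows and right of it in 4; 11 of the 29 turn after subtraction of the median of all rows.

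The 4 receptors that were higher in Ctcf-cKO were Olfr872, Olfr39 and Olfr873, which neighbour each other on chromosome 9, and Olfr330 on chromosome 11. All 4 encode odorant receptors and stand in the class Coding with 30 probes each. Olfr872 averaged 6.09 in wild-type mice and 7.98 in Ctcf-cKO mice, a 3.71-fold higher signal. Olfr39 averaged 4.90 and 6.92, a 4.06-fold higher signal. Olfr873 averaged 4.55 and 6.55, a 4.00-fold higher signal. The differences of the trio thus spanned only 1.89 to 2.02, and 3 receptor rows passed a 3-fold higher signal, beside 10.1% of all rows of the classes Coding and Complex. Subtraction of the negative median of all rows could only raise the differences of these receptors, so it could not change their direction.

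The trio occupies 64.0 kb of the plus strand (GRCm38, chromosome 9, 20237162 to 20301190), with 21.4 kb between Olfr872 and Olfr39 and 13.5 kb between Olfr39 and Olfr873. RefSeq has 3 receptor genes in this interval, and each of them has a row. The neighbouring receptor genes Olfr868 to Olfr871 and Olfr18 have no row. The nearest other row belongs to Zfp266, a zinc finger gene 194 kb beyond Olfr873, which averaged 7.35 in wild-type mice and 8.68 in Ctcf-cKO mice. The tissue column of the table, taken from UniGene, lists olfactory mucosa for Olfr872, Olfr39 and Olfr330 and turbinate for Olfr873, Olfr39 and Olfr330, and testis for none of these 4.

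Olfr330 lies on the minus strand of chromosome 11 (GRCm38, 58528929 to 58534825) and had averages of 4.02 in wild-type mice and 5.20 in Ctcf-cKO mice, a 2.27-fold higher signal. Its wild-type average was the lowest of any receptor row. Its nearest other row, 4930504O13Rik at 76.0 kb, lay in the opposite direction, with 9.17 in wild-type mice and 7.82 in Ctcf-cKO mice.

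The bases upstream of Olfr872, Olfr39 and Olfr330, 3 of the 4 higher receptors, and of Olfr701, a bright lower one, are shown because their annotated start is not the start codon itself. The reference promoter windows (RefSeq, GRCm38.p6) run from 250 bases before to 50 after the annotated start, and 22 of the 33 receptors have one. In 14 of these 22, the annotated start is the ATG itself, as in 76.4% of all 1283 receptor windows and 5.83% of all 32851 windows, so the true start of transcription may lie further upstream. The windows of Olfr872 (chr9:20236912-20237161, plus strand), Olfr39 (chr9:20282101-20282350, plus strand), Olfr330 (chr11:58534826-58535075, minus strand) and Olfr701 (chr7:106813879-106814128, plus strand) are printed without the 50 bases after the start, and capitals mark matches to 3 motifs on either strand.
Olfr872: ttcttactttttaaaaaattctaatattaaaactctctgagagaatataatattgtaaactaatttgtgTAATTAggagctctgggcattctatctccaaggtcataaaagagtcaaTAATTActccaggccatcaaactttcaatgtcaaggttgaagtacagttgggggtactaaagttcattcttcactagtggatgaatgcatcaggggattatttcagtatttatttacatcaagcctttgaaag
Olfr39: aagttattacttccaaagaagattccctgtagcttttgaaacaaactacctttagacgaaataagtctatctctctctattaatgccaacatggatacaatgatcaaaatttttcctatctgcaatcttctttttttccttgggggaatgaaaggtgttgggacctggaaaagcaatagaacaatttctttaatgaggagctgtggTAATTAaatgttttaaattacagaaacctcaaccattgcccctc
Olfr330: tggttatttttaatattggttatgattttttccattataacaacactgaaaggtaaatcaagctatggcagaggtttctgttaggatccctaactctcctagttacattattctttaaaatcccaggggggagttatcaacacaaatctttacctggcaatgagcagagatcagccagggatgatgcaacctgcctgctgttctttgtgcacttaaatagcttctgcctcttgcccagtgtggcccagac
Olfr701: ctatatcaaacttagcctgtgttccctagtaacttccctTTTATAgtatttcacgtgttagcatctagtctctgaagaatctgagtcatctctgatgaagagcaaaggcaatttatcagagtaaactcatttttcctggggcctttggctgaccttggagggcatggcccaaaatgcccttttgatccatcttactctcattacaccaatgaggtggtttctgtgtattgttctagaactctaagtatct
The motifs searched were TAATTA, a homeodomain site of the kind found near odorant receptor genes, TATAAA, the TATA box, and TGACGTCA, the cyclic AMP response element. None of these motifs contains another. TAATTA was found at 2 places upstream of Olfr872 and at 1 upstream of Olfr39, and the capitals of Olfr701 are TATAAA on the other strand. Olfr330 held none of the 3. Over the full 300 bases, TAATTA occurred in 4 of 22 receptor rows with a window (Olfr1277, Olfr275, Olfr39 and Olfr872), in 16.5% of all receptor windows and in 5.29% of all windows. TATAAA occurred in 6 of the 22, in 39.7% of receptor windows and in 13.6% of all windows. TGACGTCA occurred in 0 of the 22, in 0.234% of receptor windows and in 1.79% of all windows. These are matches of letters only. Aligned end to end, the windows of Olfr872 and Olfr39 were identical at 53.2% of aligned positions.

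Where receptor rows with starts within 1 Mb of each other were joined, 22 of the 33 fell into 6 clusters and 11 stood alone. Each cluster ran in a single direction, 5 lower and 1 higher. All 16 pairs of neighbouring receptor rows within 1 Mb had the same direction, beside 65.8% of 3308 such pairs among the other rows of the classes Coding and Complex. Within 100 kb it was 13 of 13 receptor pairs beside 76.0% of 1193 pairs. The bases of these shares differ, since 87.9% of the receptor rows and 61.9% of the other rows were lower. Any pair of receptor rows would agree more often for that reason alone, and a link to position was not tested. Neighbouring receptors are similar in sequence and can share hybridization to probes, which was not tested because the probe sequences were not analysed here. After subtraction of the median of all rows, the 5 lower clusters each had 1 or 2 rows above 0. The chromosome 9 cluster, being higher, could not turn.

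**Figure D2:**
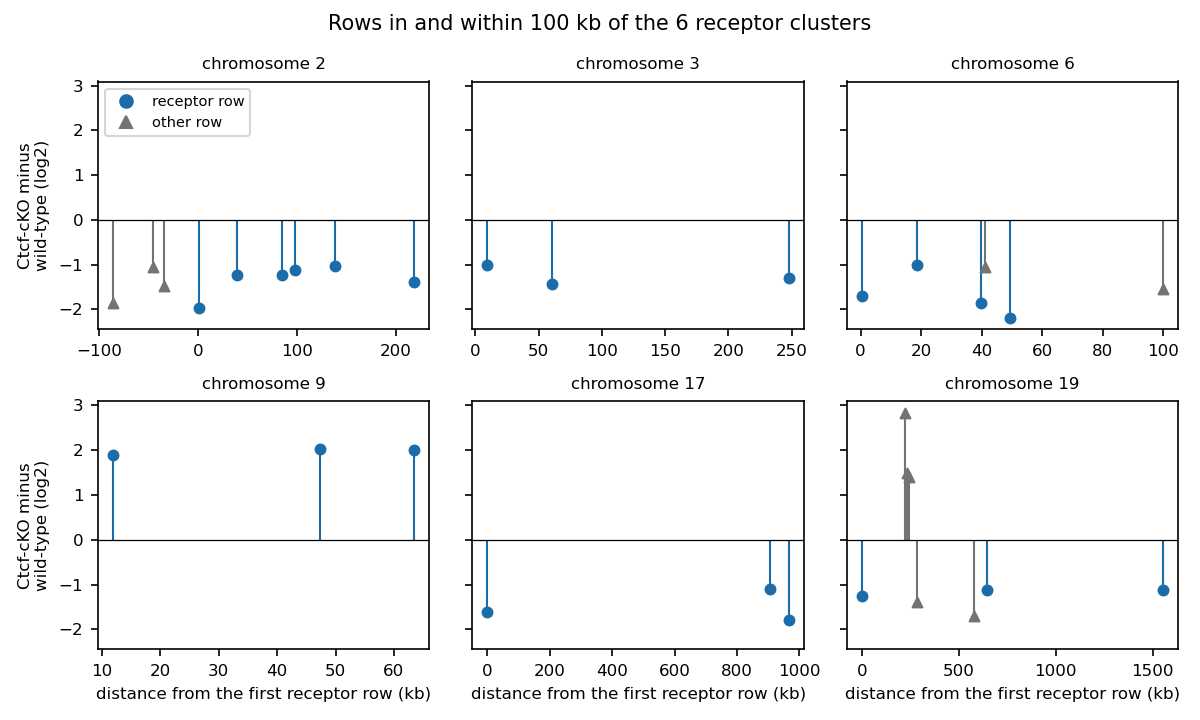
Difference of Ctcf-cKO from wild-type (log2, vertical axis) against the distance of each row's midpoint from the start of the first receptor row of the cluster (kb, horizontal axis), for the 6 receptor clusters. Circles are receptor rows and triangles other rows inside or within 100 kb; all receptor rows lie below 0 on chromosomes 2, 3, 6, 17 and 19 and above 0 on chromosome 9, although 1 or 2 of them turn in each of the lower clusters after subtraction of the median of all rows.

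The cluster with the most rows was on chromosome 2 (GRCm38, 111230818 to 111450059), where 6 odorant receptor rows within 219 kb were lower in Ctcf-cKO. RefSeq has 13 receptor genes in this interval, all protein-coding. Olfr1275, at the left end, had the largest difference among the lower odorant receptors, from 5.83 in wild-type to 3.86 in Ctcf-cKO, a 3.92-fold lower signal. Olfr1287, at the right end, averaged 5.88 and 4.49. Between them, Olfr1277 averaged 5.54 and 4.31, and Olfr1280 averaged 5.66 and 4.43. Both had a difference of -1.23. Olfr1281, whose row also carries the symbol Olfr1285, averaged 5.35 and 4.24. Olfr1283 averaged 4.13 and 3.11, the lowest Ctcf-cKO average of all 7580 rows. All 6 rows had both averages under 6, so this cluster lies at the bottom of the signal range.

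Olfr1275 lies 1.22 kb upstream of the start of 4930430A15Rik, both on the minus strand. The 4930430A15Rik row averaged 10.90 in wild-type mice and 9.42 in Ctcf-cKO mice. Gm15130, with 10.24 and 8.39, and Gm13961, with 8.14 and 7.08, lie on the same side within 100 kb. Olfr1275 and 4930430A15Rik were thus both lower, with differences of -1.97 and -1.48.

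The first 50 coding bases of the 5 chromosome 2 receptors whose window starts with ATG show how alike these neighbours are. Each begins with the start codon and runs 5′ to 3′ along the gene (RefSeq, GRCm38.p6), and capitals mark bases that differ from Olfr1280.
Olfr1275: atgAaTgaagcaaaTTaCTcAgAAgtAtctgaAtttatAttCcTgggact
Olfr1277: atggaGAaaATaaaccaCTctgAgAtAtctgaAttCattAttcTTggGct
Olfr1280: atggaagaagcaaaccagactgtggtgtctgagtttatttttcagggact
Olfr1283: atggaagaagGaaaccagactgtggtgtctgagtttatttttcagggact
Olfr1287: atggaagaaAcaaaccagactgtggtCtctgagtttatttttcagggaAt
Olfr1280 and Olfr1283 were identical at 49 of 50 bases, Olfr1280 and Olfr1287 at 47, and Olfr1283 and Olfr1287 at 46. Olfr1275 and Olfr1277 matched the others at 34 to 36 bases. The values of Olfr1280, Olfr1283 and Olfr1287 are to be read as uncertain where probes could bind more than one of them.

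A second tight cluster held 4 vomeronasal type 1 receptor rows within 49.7 kb of the minus strand of chromosome 6 (GRCm38, 58455069 to 58504737). Of these, 3 are pseudogenes by RefSeq. Vmn1r-ps23 had the largest difference of any receptor row, from 6.58 in wild-type to 4.39 in Ctcf-cKO, a 4.56-fold lower signal. Vmn1r-ps22 averaged 7.23 and 5.38, and Vmn1r-ps21 averaged 6.19 and 4.50. These pseudogenes differed by -2.19, -1.85 and -1.69. The protein-coding member, Vmn1r31, averaged 5.50 and 4.49 and was among the 3 receptor rows with the smallest difference, -1.01. RefSeq has 4 receptor genes in the interval and all have a row. A noncoding row without a symbol lies 328 bases from Vmn1r-ps22 on the same strand, with 5.97 in wild-type mice and 4.91 in Ctcf-cKO mice.

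On chromosome 3, 3 vomeronasal type 2 receptors on the minus strand within 354 kb (GRCm38, 64490821 to 64844765) were lower. Vmn2r6 averaged 6.83 in wild-type mice and 5.39 in Ctcf-cKO mice. Vmn2r7, a row of 210 probes that also carries Vmn2r-ps11, Gm20698 and Gm26939, averaged 7.17 and 5.88. Vmn2r5 averaged 5.77 and 4.76, a difference of -1.01. The interval holds no other row, and the nearest, the pseudogene row Gm5139 at 327 kb from Vmn2r5, lay in the opposite direction with 9.59 and 10.79.

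On chromosome 17, Vmn2r-ps121, Vmn2r107 and Vmn1r224 spread over 967 kb of the plus strand (GRCm38, 19453325 to 20420059), with 19 receptor genes of RefSeq in the interval and no other row. Vmn1r224 averaged 6.37 in wild-type mice and 4.57 in Ctcf-cKO mice, a 3.48-fold lower signal. Vmn2r-ps121 averaged 6.26 and 4.64, and Vmn2r107 averaged 5.50 and 4.41. The loosest grouping was on chromosome 19 (GRCm38, 12240721 to 13795609), where Olfr262 averaged 6.28 and 5.03, Olfr1445 averaged 6.77 and 5.65, and Olfr1497 averaged 6.07 and 4.95. These 3 rows span 1555 kb with 66 receptor genes of RefSeq between their ends, and 5 other rows lie among them, 2 lower and 3 higher. Among the latter is Mpeg1, a gene of macrophages, with 6.05 in wild-type mice and 8.89 in Ctcf-cKO mice. Receptor rows in 1 direction thus stood beside rows in the other. With a joining distance of 500 kb, 18 rows remained in clusters. The chromosome 19 rows were then no longer joined, and Vmn2r-ps121 no longer joined the other chromosome 17 rows.

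The 11 receptor rows outside clusters were brighter, with a median wild-type average of 7.06 beside 5.975 for the clustered rows. The highest wild-type average of any receptor row was that of Olfr112 on chromosome 17 (GRCm38, 37563228 to 37569451, minus strand), with 8.16 in wild-type mice and 6.46 in Ctcf-cKO mice, a 3.25-fold lower signal. Vmn2r-ps111 averaged 7.88 and 6.63, Vmn2r-ps54 averaged 7.75 and 6.01, and Olfr701 averaged 7.69 and 6.32. With Olfr872 and Vmn1r-ps22, these were the 6 highest signals, and 5 of these 6 rows were lower in Ctcf-cKO. Olfr19 on chromosome 16 had the next largest difference after Olfr1275 among the lower odorant receptors, from 5.63 to 3.83, a 3.48-fold lower signal. The remaining lower single rows were Olfr1509 (7.06 and 5.52), Vmn1r43 (7.08 and 6.01), Olfr275 (6.86 and 5.81), Olfr735 (6.06 and 5.03) and Vmn2r71 (5.25 and 4.11). The Olfr275 row also carries the symbol 4930552N02Rik.

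Some of the bright rows share their locus with other transcripts. Olfr701 starts 27 bases from the noncoding row 4930458B22Rik, which runs the opposite way and averaged 6.04 in wild-type mice and 4.87 in Ctcf-cKO mice, so the upstream sequence printed for Olfr701 lies largely within that transcript. Vmn2r-ps111 (chromosome 14, 51377284 to 51432043, plus strand) lies inside the span of Gm7247, a coding row of the same strand with 8.08 and 6.87. It is also overlapped by a noncoding row without a symbol on the other strand, with 6.54 and 5.37. Vmn2r-ps54 (chromosome 7, 41667979 to 41727193, plus strand), whose row also carries Gm10948 and Vmn2r-ps55, overlaps the pseudogene row Gm9252 of the other strand, with 7.90 and 6.89. In each of these cases both transcripts were lower, and the signal of the receptor gene cannot be told apart from that of the same-strand transcript for Vmn2r-ps111. Over all receptor rows, 16 had another row within 100 kb, and in 15 of these the nearest one had the same direction, Olfr330 being the exception. These 16 rest on 10 distinct neighbours, since 4 chromosome 2 rows share 4930430A15Rik and 4 chromosome 6 rows share the noncoding row. Of 2837 other rows of the classes Coding and Complex with a row within 100 kb, 75.8% had the direction of the nearest one. Receptor rows were more often lower than the other rows of these classes, so these shares do not compare like with like.

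Receptor rows were far dimmer than the other rows of the classes Coding and Complex. The higher of both averages was under 6 on the log2 scale in 9.27% of the 3192 rows of the class NonCoding. For the receptors it was 12 of the 33 (36.4%), beside 0.270% of the 4069 other rows of the classes Coding and Complex. These 12 made up most of the 23 such rows in the classes Coding and Complex, of which 69.6% were lower. Of the 12, 11 were lower, beside 5 of the 11 others. Between 6 and 7, 10 of 12 receptor rows were lower, beside 55.1% of 138 others and 57.3% with both together. Between 7 and 8, 7 of 8 were lower, beside 47.2% of 509 others and 47.8% together. At 8 and over stood 1 receptor row, Olfr112, which was lower, as were 64.5% of 3411 others. The Ctcf-cKO average was under 6 in 25 of the 33 receptor rows and the wild-type average in 14. The table gives no detection call, so whether a dim row lies above background is unknown. Signal also depends on how well each row's probes bind, so these levels do not rank the genes by expression.

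**Figure D3:**
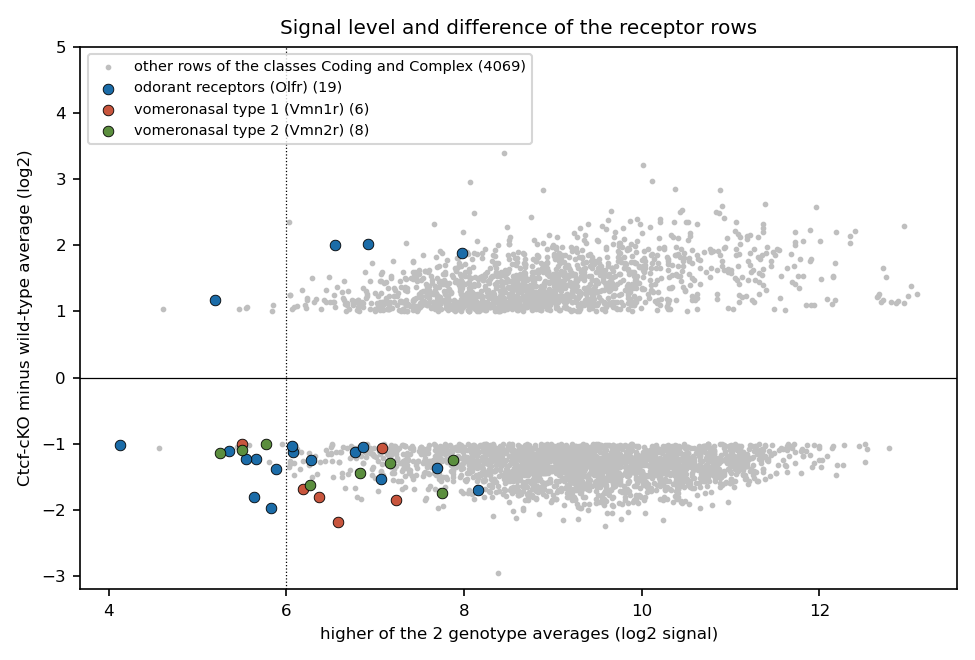
Difference of Ctcf-cKO from wild-type (log2, vertical axis) against the higher of both genotype averages (log2 signal, horizontal axis) for 33 receptor rows, coloured by family, and 4069 other rows of the classes Coding and Complex in grey; the dotted line marks 6. Receptor rows lie at the left edge, 12 of them under 6, with 29 below 0 and 4 above, and 11 of the 29 turn after subtraction of the median of all rows; the empty band around 0 is the authors' fold limit.

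Classes in the table do not follow gene status. All 33 receptor rows are in the classes Coding (24 rows) or Complex (9 rows), and 0 are in the class Pseudogene, yet 6 carry a pseudogene symbol and are pseudogenes in RefSeq: Vmn1r-ps21, Vmn1r-ps22, Vmn1r-ps23, Vmn2r-ps54, Vmn2r-ps111 and Vmn2r-ps121. All 6 were lower, with differences of -2.19 to -1.25 and a median wild-type average of 6.905. The other 27 rows are protein-coding in RefSeq, and 23 of them were lower and 4 higher. Of the 281 rows of the class Pseudogene, 39.1% were lower. These rows were brighter, with a median wild-type average of 9.26, and some of the receptor pseudogenes lie together in the chromosome 6 cluster. The sets thus differ in more than receptor status. All 9 Complex rows were lower and each had a wild-type average over 6, whereas the Coding rows held all 12 dim rows.

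The UniGene column lists tissues for 14 of the 33 receptor rows, and testis for 6 of these: Olfr112, Olfr275, Olfr701, Vmn2r-ps54, Vmn2r7 and Vmn2r71. The rows of Olfr275, Vmn2r-ps54 and Vmn2r7 also carry symbols of other genes, so their signal and listing may not be those of the receptor. All 6 rows with testis listed were lower in Ctcf-cKO, with a median wild-type average of 7.43. Of the 8 rows with tissues other than testis, 4 were lower and 4 higher. The other 19 receptor rows have no tissue listed, and all 19 were lower as well. Over the classes Coding and Complex, testis is listed for 94.5% of the lower and 80.4% of the higher rows that have tissues.

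Of 119 listed symbols of other chemosensory genes, 9 had a row, with 4 lower and 5 higher in Ctcf-cKO. Of 13 genes of olfactory signalling the only one with a row was Pde1c, a phosphodiesterase of olfactory cilia that also acts elsewhere, with 9.53 in wild-type mice and 8.0 in Ctcf-cKO mice. The olfactory G protein Gnal, the adenylyl cyclase Adcy3 and the channel subunit Cnga2 have no row. Reep1, a receptor trafficking protein, averaged 9.16 and 10.49, and Ebf1, a transcription factor of olfactory neurons and other cells, averaged 6.54 and 7.94. Gnai2, the partner of type 1 vomeronasal receptors and a G protein of many cells, averaged 9.72 and 11.20, the opposite direction to all 6 Vmn1r rows. Among the receptor-like Ms4a genes, Ms4a13 (9.80 and 8.10) and Ms4a5 (10.47 and 9.03) were lower and Ms4a10 (6.25 and 7.44) and Ms4a7 (4.50 and 5.56) higher. Adrbk2, a receptor kinase, averaged 8.26 and 7.21. No taste signalling gene of 5 had a row.

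Markers of testis cell types differed between the genotypes beside the receptors. The 6 of 7 primary spermatocyte markers with a row and all 7 round spermatid markers were lower, with differences of -1.57 to -1.04 and of -1.47 to -1.06, and the 2 of 7 elongating spermatid markers with a row, Prm3 and Akap4, differed by -1.04 and -1.02. Markers of Leydig cells (6 of 7 with a row), Sertoli cells (5 of 7), macrophages (5 of 7), peritubular myoid cells (3 of 4) and endothelial cells (2 of 4) were all higher, by 1.06 to 2.97, as was Kit (7.81 and 10.09), the only 1 of 5 spermatogonial markers with a row. The log2 of the summed signal went from 13.36 in wild-type to 12.05 in Ctcf-cKO for the round spermatid markers and from 12.57 to 14.35 for the Leydig markers. After subtraction of the median of all rows, 5 of the 15 lower germ cell markers turned (Sycp1, Dmc1, Acr, Prm3 and Akap4). The somatic markers, being higher, could not turn. The 5 markers of olfactory sensory neurons, Omp, Gap43, Cnga2, Gnal and Stoml3, have no row. The part of these cell types in the receptor values was not tested, and in whole tubules fewer cells of a type and less RNA per cell cannot be told apart.

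**Figure D4:**
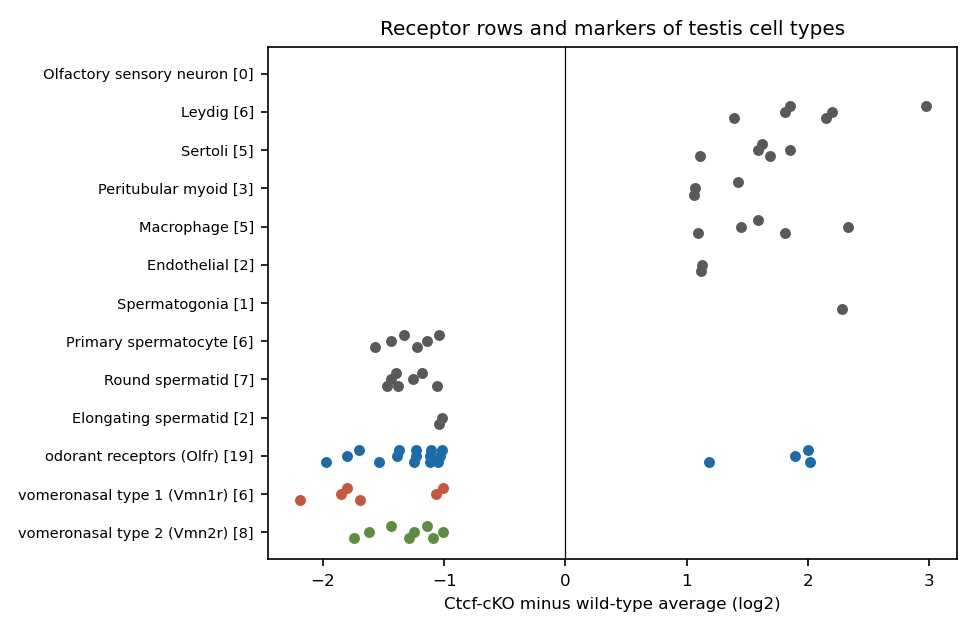
Difference of Ctcf-cKO from wild-type (log2, horizontal axis) for markers of testis and olfactory cell types (grey) and for the receptor rows by family (colours); brackets give the number of rows with a value. Spermatocyte and spermatid markers lie below 0 and somatic markers above 0, and 29 receptor rows lie below 0 and 4 above. The fold limit leaves no row near 0, and the part of these cell types in the receptor values was not tested. No marker of olfactory sensory neurons has a row. After subtraction of the median of all rows 11 of the lower receptor rows turn.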

How the data were processed

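Tubule RNA of 3 wild-type mice and of 4 Ctcf-cKO mice was hybridized to Affymetrix MTA 1.0 arrays, 1 per mouse. The submitters' processing notes name Affymetrix Expression Console 1.4.1, RMA, Transcriptome Analysis Console 3.0 and mm10. The deposited log2 signals are the authors' bi-weight averages per genotype, already selected for a linear fold of 2 and p of 0.05. The deposited columns of fold changes, p-values and adjusted p-values from the authors' own comparison were not used, and the probe number per row is a deposited count. Decimal commas were read as points (Python 3.11.15, pandas 2.3.3, Biopython 1.88 for alignment). Differences and folds were computed from the averages, so the log2 scale of the authors' values carries over. No test between genotypes was run here, because values of single mice were not analysed. Counting, joining and motif search were tested on simulated data. Members and gene lists were chosen with earlier results of these data known. Genes named were the 8 largest differences per direction, the 6 highest signals, the 3 smallest differences, all rows in clusters of 3 or more, and rows overlapping another gene. Other rows were named to account for every member.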

Additional observations from a re-analysis of the deposited data

How the results depend on the processing

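Counts of lower and higher receptor rows were 29 and 4, and were the same with 1 row per symbol, with repeated rows counted once and within the classes Coding and Complex. The number of lower rows was 9 with a linear fold of at least 3, 13 with at least 2.5, 18 with a brighter average of at least 6, and 1, Vmn1r-ps23, where a fold of 2 was asked for after the median difference of the whole table was subtracted; fewer rows can pass each of these. The higher rows numbered 3 or 4 under every alternative run, although subtraction of the negative median could only raise them. The median difference of -1.23 became -0.085 after that subtraction and -1.29 with a brighter average of at least 6. The rows in clusters numbered 22 at a joining distance of 1 Mb and 18 at 500, 250 and 100 kb. Rows with both averages under a limit numbered 12 at 6, 1 at 5 and 24 at 7. No paired analysis was possible because the table holds only an average per genotype, and for the same reason leaving out single mice was not run. The spread between mice is unknown for each value given.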

Other observations

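The search by first symbol missed signal at other annotated receptor loci, and these rows were looked at after their values were seen. By position, 27 other rows overlapped a RefSeq receptor gene (GRCm38.p6), 22 lower and 5 higher in Ctcf-cKO, with a median wild-type average of 8.22. They were mostly noncoding (17 rows), so the overlap does not make their signal that of the receptor. Of the 3192 rows of the class NonCoding, 70.9% were lower, and of all 7580 rows 64.9%. A difference of the 27 rows from these shares was not tested. In 14 of the 27 rows the overlapped genes include a Vmn2r pseudogene, and 12 of these 14 were lower. Among these are Gm26639 on chromosome 13, whose span holds Vmn2r-ps95, Vmn2r-ps96 and Vmn2r-ps97 and which averaged 8.22 in wild-type mice and 6.58 in Ctcf-cKO mice, and Gm13165 on chromosome 4 over Vmn2r-ps17, which averaged 10.44 and 9.04. The 5 higher rows were Gm20629 over Vmn2r9 and Vmn2r-ps21 (6.02 and 7.77), Nt5c3 over Vmn1r4 (6.22 and 7.79), Gm2308 over Vmn2r60 (10.71 and 11.93), Gm5139 over Vmn2r1 and Vmn2r2 (9.59 and 10.79) and Gm26715 over Vmn2r-ps104 (6.57 and 7.76). Spata22, a meiotic gene, has a row that also carries the symbol Olfr20, with averages of 7.60 and 6.33.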
